A study of Homo sapiens with 40 samples.

Results

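AQP3, which encodes the membrane channel aquaporin 3, was followed as 1 of the 44584 gene names in the count table of BT474 and BT474R cells treated with EGF or HRG. It was chosen by its log2 fold changes in BT474 at 12 h, among the largest rises with both ligands, so the 12 h values of BT474, and everything built on those libraries, are a description and carry no test. BT474 is a HER2-positive, estrogen receptor-positive human line from a breast tumour, sensitive to trastuzumab, an antibody against HER2. BT474R is a trastuzumab-resistant derivative of it, 1 clone that was selected under trastuzumab, so that what it shows may belong to that clone. All cells of both lines were first starved of serum overnight. T0 libraries were taken then, and the other cells received 50 ng/mL EGF (epidermal growth factor, the ligand of EGFR), 10 ng/mL HRG (heregulin, the ligand of HER3 and HER4) or water as the vehicle for 1 h, 12 h or 24 h. Each of the 20 groups holds 2 libraries, 40 in all, and the ligands were given at different doses.

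Aquaporins are channels that let water cross cell membranes. AQP3 belongs to the aquaglyceroporins, the branch of the family that also passes glycerol, and it lets hydrogen peroxide through as well. It is best known from the basolateral membrane of kidney collecting duct cells and from the basal layers of the epidermis, where glycerol entering through it contributes to skin hydration. EGF and HRG act on receptors of the HER family, which share downstream kinase cascades, and HER2, the receptor amplified in these cells, is the preferred partner of the receptors that bind them.

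The gene lies on chromosome 9 between 33441160 and 33447593 on the reverse strand (RefSeq, GRCh38.p14), and 0 other genes of the RefSeq table overlap it. The authors aligned to GRCh38.p13, a patch release of the same assembly. The promoter window of AQP3 (chr9:33447544-33447843, reverse strand) is shown with that of AQP5 (chr12:49961622-49961921, forward strand). AQP5 is shown as the other aquaporin that rose with both ligands at 24 h in BT474. In BT474R it did not pass the test with either ligand. Each run is 300 bases, from 250 bases before the start site to 50 after it, 5′ to 3′ on the strand of the gene, and capitals mark motif matches on either strand. One motif marked is the SP1 box, GGGCGG. Another is the core of the CREB site, spelled CGTCA. The TATA box, with the letters TATAAA, is the last.
AQP3: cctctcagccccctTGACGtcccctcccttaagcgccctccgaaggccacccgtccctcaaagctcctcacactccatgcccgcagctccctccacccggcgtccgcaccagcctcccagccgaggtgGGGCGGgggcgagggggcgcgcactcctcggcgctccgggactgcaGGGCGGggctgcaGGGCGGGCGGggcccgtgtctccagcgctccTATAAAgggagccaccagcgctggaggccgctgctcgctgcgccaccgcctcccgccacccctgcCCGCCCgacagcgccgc
AQP5: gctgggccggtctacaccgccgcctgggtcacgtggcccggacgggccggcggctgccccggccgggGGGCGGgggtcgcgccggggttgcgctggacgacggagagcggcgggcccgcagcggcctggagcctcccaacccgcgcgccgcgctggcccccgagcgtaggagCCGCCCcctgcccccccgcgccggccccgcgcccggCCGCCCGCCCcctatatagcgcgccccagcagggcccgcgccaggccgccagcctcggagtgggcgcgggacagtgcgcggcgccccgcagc
In AQP3, GGGCGG was found 5 times, with first bases 122, 76, 63 and 59 bases before the start site, and once on the other strand at base 34 after it. The matches at 63 and 59 overlap. A TATAAA stood 32 bases before the start, a CGTCA on the other strand 236 bases before it, and the hypoxia element core CGTG 49 bases before it. The window of AQP3 held 75.3% G and C, against a median of 58.7% over 35116 promoters of the same length. Of those promoters, 45.0% hold GGGCGG, 24.6% CGTCA, 67.0% CGTG and 11.5% TATAAA. Also searched on both strands, and not matched in the AQP3 window, were the AP-1 sites TGAGTCA and TGACTCA (4.95% of promoters), the nuclear receptor core GGTCA (37.4%), the EGR1 site GCGTGGGCG (0.795%) and the ETS site CCGGAA (17.2%). AQP5 held 4 GGGCGG matches, 2 CGTG and 1 GGTCA, and no TATAAA or CGTCA. A match is a description of the letters and not of binding.

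**Figure D1:**
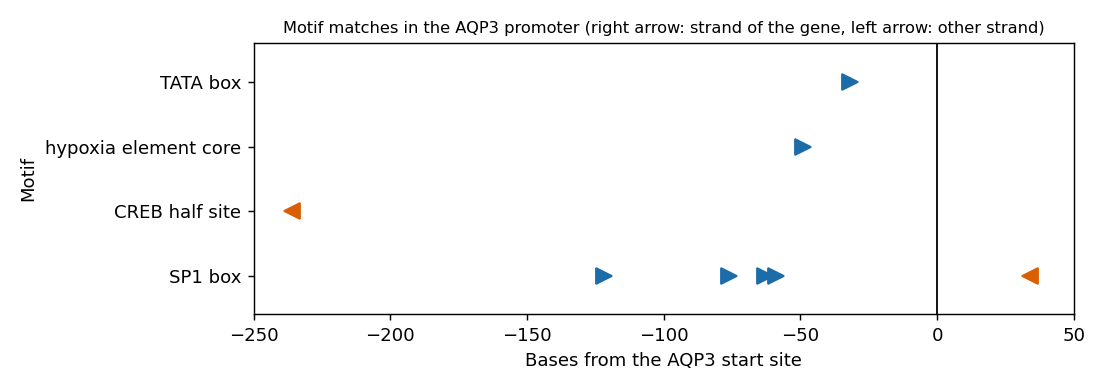
Motif matches in the promoter window of AQP3, plotted by the distance in bases of their first base from the start site (x axis) and by motif (y axis). Arrows to the right are on the strand of the gene and arrows to the left on the other strand. A total of 4 of the 5 SP1 boxes lie between 122 and 59 bases before the start.

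Libraries held between 19200632 and 29098915 counts in BT474 and between 16794594 and 33387936 in BT474R. All 10 luminal epithelium markers (EPCAM, KRT8, KRT18, KRT19, CDH1, GATA3, ERBB2, ESR1, GRB7 and FOXA1) had over 3 counts in every library, with sums between 12700 and 16800 CPM (counts per 1000000 counts after TMM scaling) in BT474 and between 11900 and 18800 in BT474R. Of the leukocyte markers, PTPRC and CD3E stayed at 3 counts or fewer in every library and CD68 was above 3 counts in every library, and the markers summed to at most 3.57 CPM in BT474 and 5.09 CPM in BT474R. The 6 fibroblast markers summed to between 75.2 and 105 CPM in BT474 and between 170 and 295 in BT474R, with DCN and PDGFRB at 3 counts or fewer in every library. The 5 basal markers summed to between 3.53 and 11.2 CPM in BT474 and between 2.38 and 6.28 in BT474R and the 4 endothelium markers to at most 23.2 CPM. AQP3 itself had between 17 and 541 counts in the 20 BT474 libraries and between 176 and 3652 in the 20 BT474R libraries, all above the detection limit of 3 counts, which covers counting error only. The study ran its treatments in duplicate, and whether the duplicates came from separately grown cultures is not given in the sources used here, so p-values measure the spread between these libraries, which may be technical.

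In starved cells, AQP3 was an order of magnitude more abundant in BT474R than in BT474. At T0 the BT474 libraries had 0.812 and 1.859 CPM, and the BT474R libraries 19.62 and 15.49 CPM. The lines did not overlap, and the T0 libraries of BT474 were the least alike of any BT474 vehicle or T0 group. The log2 fold change was 3.76 (SE 0.264, 13.6-fold, 95% interval 3.23 to 4.30), with an adjusted p of 8.3e-15 (edgeR quasi-likelihood, Benjamini-Hochberg). With 0.05 as the threshold, 46.9% of all genes tested differed between the lines at T0, so a difference between the lines is common. Without replicate 1 of BT474 T0 the value was 3.19, without replicate 2 it was 4.39, and with a replicate block within each time point it was 4.59. In bulk RNA, more cells that hold AQP3 RNA and more of it per cell cannot be told apart.

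The vehicle groups gave the same direction. At 1 h, AQP3 was at 1.51 and 1.60 CPM in BT474 and at 15.06 and 16.82 CPM in BT474R, a log2 difference of 3.36 (SE 0.249, adjusted p = 3.38e-14 in edgeR, where 50.2% of genes were called). At 24 h it was at 0.800 and 0.911 CPM in BT474 and at 6.765 and 8.795 CPM in BT474R, a log2 difference of 3.16 (SE 0.321, adjusted p = 1.24e-10, with 49.3% of genes called). At 12 h the vehicle levels of 1.31 and 1.48 CPM in BT474 and 19.87 and 23.22 CPM in BT474R differed by 3.96 on the log2 scale, without a test since these BT474 libraries helped choose the gene. Every BT474R vehicle library thus lay above every BT474 vehicle library. BT474R vehicle libraries at 24 h also lay above the BT474 libraries 24 h after either ligand, but only just. The lower of them was at 6.765 CPM, and the highest BT474 library, after HRG, at 6.597 CPM. This comparison was not tested.

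**Figure D2:**
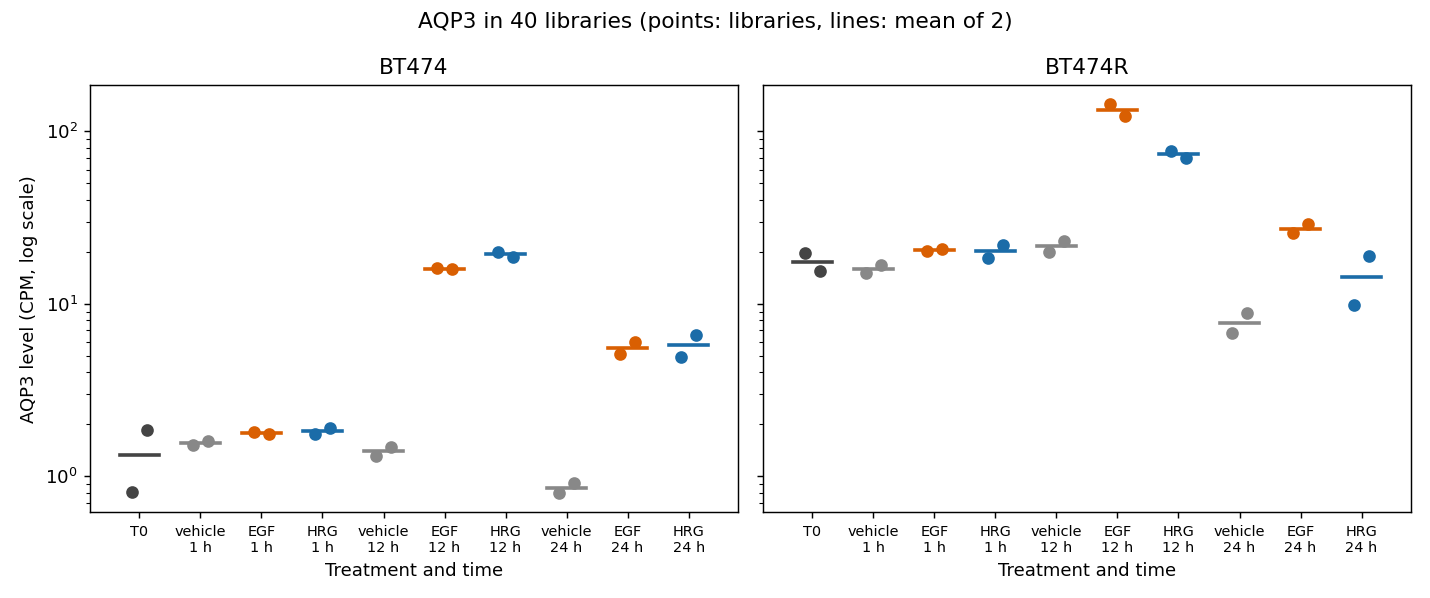
AQP3 level in CPM on a log axis (y) in each group of treatment and time (x), with BT474 on the left and BT474R on the right. Points are the 40 libraries and horizontal lines the means of the 2 libraries of a group. The EGF and HRG groups at 12 h stand highest in both lines, at means of 16.0 and 19.3 CPM in BT474 and 133 and 73.9 CPM in BT474R.

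The level of AQP3 over time in vehicle alone was not flat. In BT474R, AQP3 fell from 19.62 and 15.49 CPM at T0 to 6.765 and 8.795 CPM after 24 h of vehicle, and the groups did not overlap. It dropped by 1.17 on the log2 scale (SE 0.213, adjusted p = 0.000823 in edgeR, with 13.7% of genes called), while at 1 h and 12 h of vehicle the differences from T0 were -0.12 (adjusted p = 0.852) and 0.32 (adjusted p = 0.633). In BT474 the 24 h vehicle libraries differed from T0 by -0.57 (SE 0.320, interval -1.21 to 0.08, adjusted p = 0.312, with 11.4% of genes called), with overlapping groups. This value rested on the T0 libraries, since it was -1.10 (adjusted p = 0.034) without replicate 1 of T0 and 0.10 without replicate 2. Each ligand is therefore set against the vehicle of its own time.

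One hour after either ligand, AQP3 was little above vehicle in both lines and did not pass the test. In BT474 the 1 h libraries had 1.76 and 1.80 CPM after EGF and 1.76 and 1.91 CPM after HRG, each above the vehicle libraries of 1.51 and 1.60 CPM. The log2 fold changes were 0.17 for EGF (SE 0.251, interval -0.34 to 0.68, adjusted p = 0.901) and 0.23 for HRG (SE 0.264, interval -0.31 to 0.76, adjusted p = 0.822), in comparisons where 2.19% and 2.77% of genes were called. In BT474R, AQP3 had 20.17 and 20.73 CPM after EGF and 18.37 and 22.03 CPM after HRG, against 15.06 and 16.82 CPM in vehicle. Here the log2 fold changes were 0.35 (SE 0.179, adjusted p = 0.915) and 0.34 (SE 0.178, adjusted p = 1), with 0.457% and 0.169% of genes called. The 4 estimates at 1 h were positive, and within a line both ligands were set against the same vehicle libraries. Without a filter on low counts the BT474R values passed the test (adjusted p = 0.0239 for EGF and 0.0437 for HRG), and for EGF also in a fit of the compared libraries alone (adjusted p = 0.0348).

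At 12 h in BT474, the comparison by which AQP3 was chosen, its level rose from around 1 CPM to between 15 and 20 CPM. Vehicle libraries had 1.31 and 1.48 CPM, EGF libraries 16.03 and 15.89 CPM, and HRG libraries 19.85 and 18.79 CPM. The log2 fold changes were 3.50 for EGF (SE 0.171, 11.3-fold) and 3.76 for HRG (SE 0.164, 13.6-fold), which placed AQP3 3rd and 2nd from the top among 15021 genes that averaged 1 CPM or more. Both comparisons use the same vehicle libraries. For scale, 16.0% of all genes tested were called after EGF and 25.8% after HRG.

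The rise was also present in libraries that did not take part in the choice. At 24 h in BT474, AQP3 had 0.800 and 0.911 CPM in vehicle, 5.11 and 5.98 CPM after EGF, and 4.88 and 6.60 CPM after HRG. All 4 ligand libraries lay above both vehicle libraries. AQP3 rose by 2.66 after EGF (SE 0.231, interval 2.19 to 3.13, 6.33-fold, adjusted p = 2.22e-11 in edgeR, with 16.4% of genes called) and by 2.69 after HRG (SE 0.227, interval 2.23 to 3.15, 6.46-fold, adjusted p = 5.49e-12, with 24.1% of genes called). It ranked 6th after EGF and 8th after HRG of 15021 genes. Leaving out each of the 6 libraries in turn kept these values between 2.48 and 2.90.

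In BT474R, AQP3 rose from a higher base. At 12 h it had 19.87 and 23.22 CPM in vehicle, 143.4 and 123.4 CPM after EGF, and 77.27 and 70.44 CPM after HRG. The 3 groups did not overlap. The rise was 2.63 for EGF (SE 0.162, interval 2.29 to 2.96, 6.17-fold, adjusted p = 2.93e-10 in edgeR, with 12.0% of genes called) and 1.76 for HRG (SE 0.162, interval 1.42 to 2.09, 3.38-fold, adjusted p = 5.74e-07, with 4.12% of genes called). AQP3 ranked 18th after EGF and 14th after HRG of 14792 genes that averaged 1 CPM or more. On the CPM scale, the mean rose by 112 after EGF and by 52.3 after HRG, against 14.6 and 17.9 in BT474 at the same time.

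At 24 h in BT474R, AQP3 stood lower than at 12 h in every treatment. Vehicle libraries had 6.765 and 8.795 CPM, EGF libraries 25.69 and 28.89 CPM, and HRG libraries 9.773 and 18.95 CPM. The EGF libraries were well apart from vehicle, while replicate 1 of HRG lay only just above the higher vehicle library. AQP3 rose by 1.82 after EGF (SE 0.199, interval 1.41 to 2.23, 3.54-fold, adjusted p = 6.54e-07 in edgeR, with 17.3% of genes called). After HRG it rose by 0.91 (SE 0.215, interval 0.46 to 1.36, 1.88-fold, adjusted p = 0.0232, with 2.78% of genes called). The HRG call did not hold without replicate 2 of HRG (0.36, adjusted p = 0.414), without replicate 1 of vehicle (0.71, adjusted p = 0.366), or in a fit of the 4 compared libraries alone (0.88, adjusted p = 0.828).

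**Figure D3:**
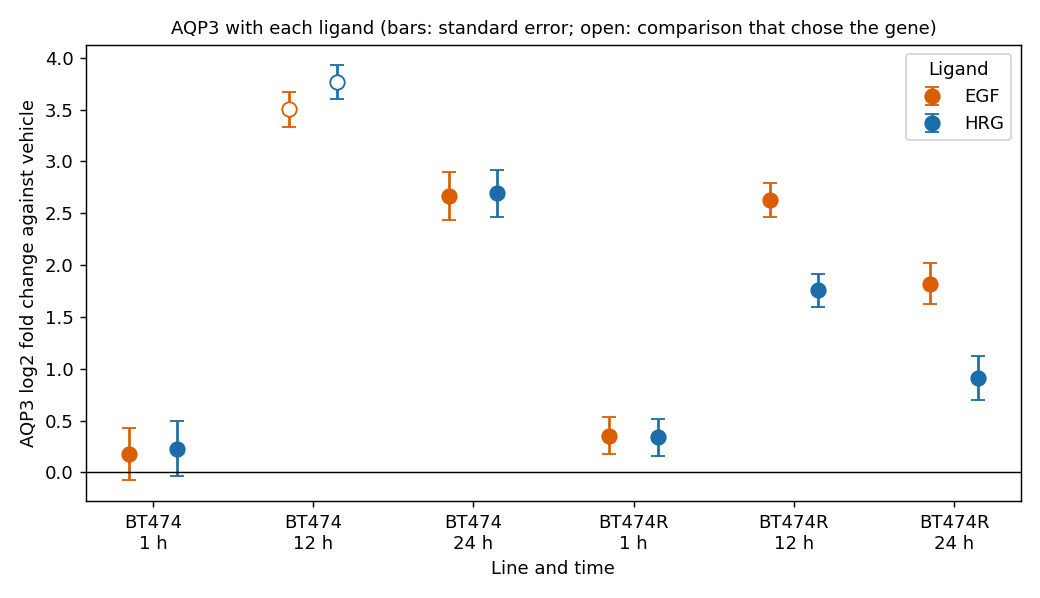
Log2 fold change of AQP3 against the vehicle of the same time (y) for each line and time (x), after EGF and HRG. Bars are standard errors from the edgeR fits, and open points mark the comparisons that chose the gene. The 1 h points lie between 0.17 and 0.35, and at 24 h the BT474 points lie at 2.66 and 2.69 and the BT474R points at 1.82 and 0.91.

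Mean levels were lower at 24 h than at 12 h in every arm. The mean at 24 h was 34.7% of the mean at 12 h after EGF, 29.7% after HRG and 61.3% with vehicle in BT474. In BT474R these shares were 20.5%, 19.4% and 36.1%. The ligand effects themselves were smaller at 24 h than at 12 h in BT474R by 0.80 for EGF and 0.85 for HRG on the log2 scale, but these differences did not pass the test (log2 values -0.80, SE 0.261, adjusted p = 0.329 and -0.85, SE 0.272, adjusted p = 0.605 in edgeR). Both passed without a filter on low counts (-0.82, adjusted p = 1.38e-06 and -0.89, adjusted p = 5.23e-07), the first also with only the compared libraries (-0.82, adjusted p = 0.0211), and the second without replicate 2 of HRG at 24 h (-1.40, adjusted p = 0.00162). In BT474 the same differences were -0.84 and -1.07, without a test.

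HRG and EGF libraries overlapped in AQP3 level in BT474 at 24 h, and were apart in BT474R at 12 h and 24 h. In BT474 at 24 h the HRG libraries (4.88 and 6.60 CPM) spanned the EGF libraries (5.11 and 5.98 CPM), and the log2 difference of 0.03 (SE 0.153, adjusted p = 0.986, with 0.768% of genes called) had an interval from -0.28 to 0.34. In BT474R at 12 h both HRG libraries lay below both EGF libraries, and the log2 difference was -0.87 (SE 0.146, interval -1.17 to -0.57, adjusted p = 0.00163 in edgeR, with 1.42% of genes called). The 24 h difference in BT474R was -0.91 (SE 0.184, interval -1.29 to -0.53, adjusted p = 0.00301, with 5.18% of genes called). The 12 h value missed the threshold without replicate 1 of EGF (-0.75, adjusted p = 0.0897) or replicate 2 of HRG (-0.80, adjusted p = 0.0555). The 24 h value missed it without replicate 2 of EGF (-0.83, adjusted p = 0.0585) and in a fit of the compared libraries alone (-0.92, adjusted p = 0.573), and leaving out HRG replicate 1 gave -0.53, HRG replicate 2 -1.47. At 1 h the groups overlapped in both lines.

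Compared between the lines, the response to HRG was smaller in BT474R. At 24 h the HRG effect was lower in BT474R than in BT474 by a log2 difference of -1.82 (SE 0.408, interval -2.65 to -0.99, adjusted p = 0.00585 in edgeR, with 3.33% of genes called). Without replicate 2 of BT474 vehicle at 24 h the value was -1.89 with an adjusted p of 0.0694, and with the compared libraries alone -1.83 with an adjusted p of 0.185. For EGF the difference at 24 h was -0.85 (SE 0.420, interval -1.70 to 0.01, adjusted p = 0.361, with 4.01% of genes called), which did not pass the test. The change from EGF to HRG differed between the lines by -0.97 (SE 0.276, interval -1.53 to -0.41, adjusted p = 0.0307, with 4.82% of genes called), in a comparison added after the values were seen. It missed the threshold without replicate 1 of BT474 EGF (-0.84, adjusted p = 0.183), replicate 2 of BT474 HRG (-0.75, adjusted p = 0.228), replicate 2 of BT474R EGF (-0.88, adjusted p = 0.107) or replicate 1 of BT474R HRG (-0.57, adjusted p = 0.134), and with DESeq2 (-0.97, adjusted p = 0.0627), and was -1.52 without replicate 2 of BT474R HRG. At 12 h the differences between the lines were -0.89 for EGF and -2.02 for HRG, without a test. At 1 h they were 0.16 (adjusted p = 0.982) and 0.09 (adjusted p = 0.998). These are differences of ratios, and the mean gain of AQP3 in CPM was larger in BT474R than in BT474 in all 6 pairs of ligand and time. The gains at 1 h came from changes that did not pass the test. After HRG at 24 h the gain was 6.58 CPM in BT474R, from libraries at 9.773 and 18.95 CPM, against 4.88 in BT474.

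Ordered by mean level, the 20 groups ran from 133 CPM (BT474R, EGF, 12 h) to 0.855 CPM (BT474, vehicle, 24 h), a ratio of 156. Of the 19 neighbouring pairs in that order, 11 had overlapping libraries. Within BT474 the ratio was 22.6, and HRG and EGF at 12 h, then HRG and EGF at 24 h, stood above all 6 other groups. The other neighbours in BT474 were close, and 4 of 9 pairs overlapped. Within BT474R the ratio was 17.1 and 5 of 9 pairs overlapped, namely those from vehicle at 12 h down to HRG at 24 h. The BT474 levels at 12 h with ligand, 15.89 to 19.85 CPM, overlapped those of untreated BT474R cells at T0.

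Among the other members of the family, AQP5 moved with AQP3 in BT474. All 14 aquaporin genes of the list were in the table, and 12 passed the filter on low counts in each line, AQP8, AQP10 and AQP12A failing in 1 or both. AQP5 is a water channel of glands such as the salivary, lacrimal and sweat glands. At 24 h in BT474, AQP5 had 0.518 and 0.683 CPM in vehicle, 1.49 and 2.72 CPM after EGF, and 1.51 and 1.89 CPM after HRG. It rose by 1.74 after EGF (SE 0.320, adjusted p = 8.72e-05 in edgeR) and by 1.44 after HRG (SE 0.327, adjusted p = 0.000814). At 12 h, in the comparison that chose AQP3, AQP5 stood 1.99 above vehicle after each ligand, a description here. In BT474R, AQP5 had at most 10 counts in a library, and its log2 fold changes, such as 2.32 after EGF at 24 h (SE 0.911, adjusted p = 0.0867), did not pass the test. At T0 AQP5 was lower in BT474R than in BT474, with 3 and 2 counts against 13 and 10 (log2 difference -1.87, SE 0.641, adjusted p = 0.0149), the opposite direction to AQP3.

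AQP5-AS1, an antisense gene that overlaps the start of AQP5 on chromosome 12 (49951512 to 49962924, against 49961872 to 49965682 for AQP5), was also higher with ligand. In BT474 at 12 h it had 0.690 and 0.799 CPM in vehicle, 2.64 and 2.11 CPM after EGF, and 2.03 and 1.98 CPM after HRG. Its 24 h differences in BT474 of 0.55 and 0.65 did not pass the test (adjusted p = 0.259 and 0.112 in edgeR). In BT474R at 24 h after EGF, AQP5-AS1 rose by 0.75 (SE 0.253, adjusted p = 0.0437). The strand setting of the counting is not stated, so reads of AQP5 and AQP5-AS1 in the part they share cannot be told apart.

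AQP2, the water channel of the kidney collecting duct that vasopressin regulates, was measured at 2 to 26 counts. It lies beside AQP5, and most of it overlaps AQP5-AS1 on chromosome 12 (49950737 to 49958878). AQP2 had 0.380 and 0.200 CPM in vehicle at 12 h in BT474, 0.925 and 0.912 CPM after EGF, and 0.777 and 0.903 CPM after HRG. At 24 h in BT474R it had 0.269 and 0.0941 CPM in vehicle and 0.611 and 0.448 CPM after EGF, a rise of 1.45 (SE 0.488, adjusted p = 0.0441 in edgeR). The 24 h values in BT474, 0.60 after EGF and 0.89 after HRG, did not pass the test.

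**Figure D4:**
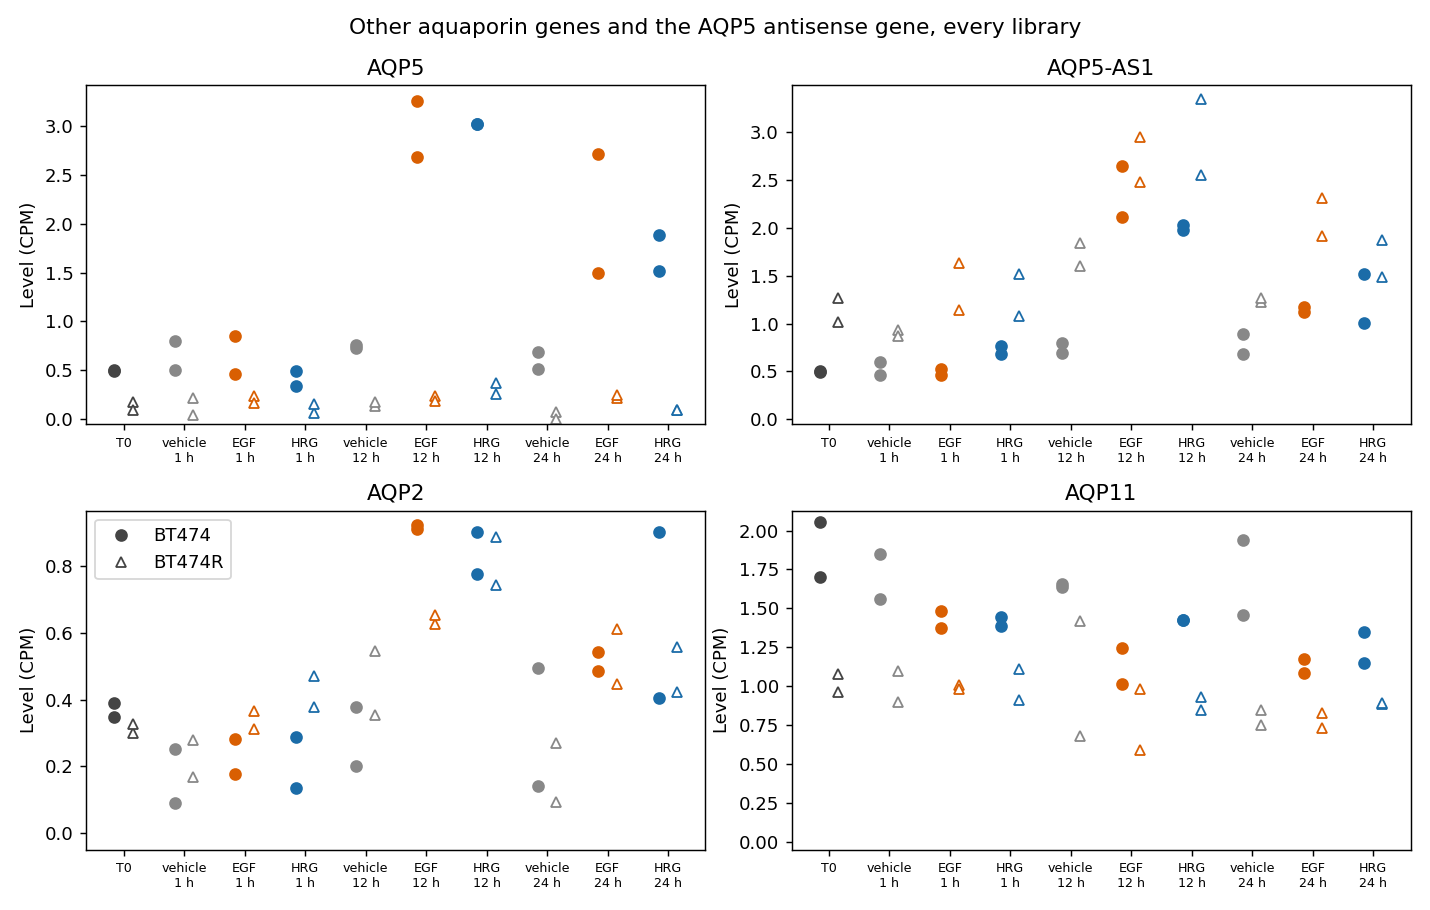
Levels in CPM (y) of AQP5, AQP5-AS1, AQP2 and AQP11 in every library, by treatment and time (x). Filled circles are BT474 and open triangles BT474R. AQP5 reaches 2.69 to 3.26 CPM with EGF at 12 h in BT474 and stays under 0.4 CPM in all BT474R libraries, while AQP11 shows no rise with ligand.

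The remaining aquaporins did not share the pattern. AQP11, which sits in intracellular membranes, had 23 to 51 counts in BT474 and 15 to 33 in BT474R, and its log2 fold changes at 24 h in BT474 were -0.62 after EGF (adjusted p = 0.0884 in edgeR) and -0.47 after HRG (adjusted p = 0.159). AQP1, the water channel of red blood cells and the proximal tubule, had 4 to 22 counts in BT474 and 13 to 32 in BT474R and did not pass the test with either ligand. AQP7, the aquaglyceroporin of fat cells and the nearest protein-coding gene to AQP3 on its lower side, had 0 to 7 counts over both lines, and it has near-identical pseudogene copies. MIP and AQP4 had at most 11 and 8 counts, and AQP6, AQP8, AQP9 and AQP10 at most 5, 3, 4 and 1. AQP12A and AQP12B, nearly identical genes side by side on chromosome 2 whose reads could have been split between them, had 60 to 107 and 104 to 197 counts in BT474R but 0 to 2 in BT474. Against the detection limit per library they were at least 17.8-fold and 31.3-fold higher in BT474R. AQP12B fell by 0.67 after EGF at 24 h in BT474R (adjusted p = 0.00445).

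As a family, 2 of the 12 tested aquaporins rose at 24 h in BT474 after each ligand, AQP3 and AQP5. Without AQP3, which was chosen for its 12 h rise, 1 of 11 rose after each ligand. Of all genes, 9.71% rose after EGF and 12.5% after HRG. Median log2 fold changes of the 12 were 0.30 and 1.31, against -0.02 over all genes in both, but 7 of the 12 had at most 11 counts in any BT474 library, so these medians rest on genes that are barely measured. At 12 h in BT474R AQP3 was the 1 member that rose of 12, where 6.85% of all genes rose after EGF and 2.38% after HRG. Without AQP3, 0 of 11 rose there after either ligand. At 1 h no member was called in either line by edgeR or DESeq2, with 0 members under an unadjusted p of 0.05.

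Genes that handle glycerol changed in both directions. Of 14 tested, 3 rose and 1 fell after EGF at 24 h in BT474, where 9.71% of all genes rose and 6.65% fell. After HRG, 5 rose and 2 fell, where 12.5% of all genes rose and 11.6% fell. The largest change was in GPAT3, an acyltransferase that starts glycerolipid synthesis from glycerol 3-phosphate. GPAT3 had 7.86 and 6.80 CPM in vehicle, 1.83 and 1.68 CPM after EGF, and 0.976 and 0.820 CPM after HRG, log2 fold changes of -2.06 (SE 0.171, adjusted p = 6.2e-12 in edgeR) and -3.03 (SE 0.191, adjusted p = 2.1e-15). MGLL, which releases glycerol from monoglycerides, rose by 0.39 (SE 0.0396, adjusted p = 1.09e-09) and 0.43 (SE 0.0394, adjusted p = 5.21e-11). In BT474R at 12 h, 2 rose and 2 fell after EGF, where 6.85% of all genes rose and 5.13% fell. After HRG, 1 rose and 0 fell, where 2.38% of all genes rose and 1.73% fell. The medians of the list were 0.21 and 0.09 in BT474 and -0.03 and -0.02 in BT474R, against -0.02, -0.02, -0.01 and -0.02 over all genes. MGLL was the gene that rose after both, by 0.47 (adjusted p = 9.64e-07) and 0.29 (adjusted p = 0.00129). GK, the kinase that traps glycerol in the cell, rose by 0.46 after HRG at 24 h in BT474 (adjusted p = 0.00756) and fell by 0.38 after EGF at 12 h in BT474R (adjusted p = 0.049).

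Genes that make or remove hydrogen peroxide, another solute that passes AQP3, moved by small amounts. In BT474 at 24 h, 3 of 23 rose after EGF, where 9.71% of all genes rose, and 4 rose and 3 fell after HRG, where 12.5% rose and 11.6% fell, so the counts were near those of all genes. PRDX4, a peroxiredoxin of the endoplasmic reticulum, rose by 0.36 (adjusted p = 2.32e-05 in edgeR) and 0.44 (adjusted p = 3.01e-07). A fall was called for 4 of 22 after each ligand at 12 h in BT474R, where 5.13% of all genes fell after EGF and 1.73% after HRG. The largest fall was in GPX2, a glutathione peroxidase of epithelia, by 0.88 after EGF (adjusted p = 1.76e-05) and by 0.76 after HRG (adjusted p = 0.000212), and CAT, which encodes catalase, fell by 0.32 (adjusted p = 0.00036) and 0.24 (adjusted p = 0.0135).

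Genes of osmotic response and cell volume numbered 18, of which 3 rose and 1 fell after EGF at 24 h in BT474 and 4 rose and 1 fell after HRG. Of all genes, 9.71% rose and 6.65% fell after EGF, and 12.5% rose and 11.6% fell after HRG. In BT474R at 12 h, 2 rose and 3 fell after EGF, where 6.85% of all genes rose and 5.13% fell, and 0 were called after HRG by edgeR, where 5 had an unadjusted p under 0.05. SLC12A4, a potassium chloride cotransporter, rose by 0.42 after EGF (adjusted p = 0.00047) and by 0.28 after HRG (adjusted p = 0.0138) at 24 h in BT474, and by 0.53 after EGF at 12 h in BT474R (adjusted p = 0.00126). NFAT5, the transcription factor of the hypertonic response, fell by 0.18 after EGF at 24 h in BT474 (adjusted p = 0.0345).

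Genes of stratified epithelium, the tissue in which AQP3 is most studied, included some of the larger changes. At 24 h in BT474, 9 of 25 rose and 3 fell after EGF, where 9.71% of all genes rose and 6.65% fell, and 7 rose and 2 fell after HRG, where 12.5% rose and 11.6% fell. KRT16, a keratin of activated epidermis, had 0.565 and 0.569 CPM in vehicle, 1.57 and 2.26 CPM after EGF, and 2.19 and 1.93 CPM after HRG, the last a rise of 1.83 (SE 0.305, adjusted p = 1.14e-05 in edgeR). KRT16 in BT474R at 12 h had 1.24 and 1.64 CPM in vehicle, 17.4 and 16.0 CPM after EGF, and 6.59 and 7.39 CPM after HRG. There KRT16 rose by 3.51 after EGF (SE 0.203, adjusted p = 1.13e-10) and by 2.24 after HRG (SE 0.218, adjusted p = 1.18e-06), in the same order of the ligands as AQP3. KRT16 shares sequence with other keratin genes and pseudogenes, so its counts are less certain. IVL, which encodes involucrin of the cornified envelope, rose by 2.28 (adjusted p = 0.00126) and 2.64 (adjusted p = 4.79e-05) at 24 h in BT474. FLG and KRT1, both of late epidermal differentiation, fell after EGF, with log2 fold changes of -3.03 (adjusted p = 0.00134) and -2.32 (adjusted p = 7.78e-05) at low counts. In BT474R at 12 h, 4 of 22 rose and 1 fell after EGF, where 6.85% of all genes rose and 5.13% fell, and 3 rose after HRG, where 2.38% rose.

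Some markers of other cell types moved in the same comparisons. Among 5 basal markers, TP63 rose by 1.05 after either ligand at 24 h in BT474 (adjusted p = 1.33e-05 for EGF and 5.64e-06 for HRG in edgeR), and 4 were not called. Of all genes, 9.71% rose there after EGF and 12.5% after HRG. In BT474R at 12 h, TP63 rose by 1.22 and 1.07 (adjusted p = 0.00431 and 0.0262), and KRT5 rose by 1.46 after EGF (adjusted p = 0.0245). There 3 of the 5 were not called after EGF and 4 after HRG, where 6.85% and 2.38% of all genes rose. The 5 summed to at most 11.2 CPM in BT474 and 6.28 CPM in BT474R. After EGF in BT474R, CD68, a lysosomal protein used as a macrophage marker and the only leukocyte marker tested, rose by 0.77 at 12 h (adjusted p = 0.0301) and by 1.36 at 24 h (adjusted p = 9.65e-05). VWF, an endothelium marker, rose by 0.42 at 12 h (adjusted p = 0.0446), and KDR rose by 2.85 at 24 h (adjusted p = 0.00247), from 1 and 4 counts to 16 and 22. PECAM1, also called at 24 h, had 0 counts in both vehicle libraries and 5 and 3 after EGF. Of the 4 endothelium markers, 3 were not called at 12 h and 2 at 24 h after EGF in BT474R. There 12.0% and 17.3% of all genes were called in either direction. COL1A1, 1 of the 3 fibroblast markers tested, fell by 0.28 after HRG at 24 h in BT474 (adjusted p = 0.000833), and 2 were not called. The 10 luminal markers went both ways, with 4 up and 4 down after each ligand at 24 h in BT474. Of all genes, 9.71% rose and 6.65% fell there after EGF, and 12.5% rose and 11.6% fell after HRG. After EGF at 12 h in BT474R, 4 of them rose and 2 fell, where 6.85% of all genes rose and 5.13% fell. KRT18 rose there by 0.81 and GATA3 fell by 1.78. The part of all these markers in the AQP3 result was not tested.

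Of 7 factors linked to AQP3 transcription in other tissues, 2 rose and 1 fell after EGF at 24 h in BT474, and 2 rose and 2 fell after HRG, where 9.71% and 12.5% of all genes rose and 6.65% and 11.6% fell. PPARG, a nuclear receptor whose agonists raise AQP3 in keratinocytes, had 6 and 10 counts in vehicle, 29 and 32 after EGF, and 45 and 36 after HRG, rises of 1.87 (SE 0.381, adjusted p = 0.000346 in edgeR) and 2.12 (SE 0.363, adjusted p = 1.81e-05). PPARG in BT474R at 12 h had 1 to 15 counts, and its values of 1.58 and 1.56 did not pass the test. HIF1A, the hypoxia factor, rose by 0.20 after either ligand at 24 h in BT474 (adjusted p = 0.000108 for EGF and 4.71e-05 for HRG) and by 0.38 after EGF at 12 h in BT474R (adjusted p = 9.24e-06). ESR1, the estrogen receptor, fell by 0.59 and 0.76 at 24 h in BT474 and by 1.25 and 0.94 at 12 h in BT474R. In BT474R at 12 h, 1 of the 7 rose and 3 fell after EGF, where 6.85% of all genes rose and 5.13% fell. After HRG, 1 rose and 2 fell, where 2.38% of all genes rose and 1.73% fell. Whether any of these moved AQP3 was not tested.

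Some of the genes around AQP3 were also higher with ligand at 12 h or 24 h. Of the 5 nearest protein-coding genes on each side, 10 were tested in BT474 and 8 in BT474R. At 24 h in BT474, NOL6 and BAG1 rose after each ligand, by at most 0.38, where 9.71% of all genes rose after EGF and 12.5% after HRG. At 12 h in BT474R, BAG1 and NOL6 rose after EGF, by at most 0.49, and NOL6 alone after HRG. There 6.85% of all genes rose after EGF and 2.38% after HRG. At 24 h in BT474R, CHMP5 alone rose after EGF, by 0.26, and 0 neighbours were called after HRG. In those comparisons 17.3% and 2.78% of all genes were called in either direction. At 1 h, 0 neighbours were called in either line. At 12 h in BT474, in the comparisons that chose AQP3, 3 of the 10 passed the calling threshold upward after EGF, by at most 0.49, and 4 after HRG. The largest of those was SPINK4, at 2.35 with 3 and 0 counts in vehicle and 9 and 7 after HRG. These 12 h counts are a description here, where 16.0% of all genes were called after EGF and 25.8% after HRG, in either direction. NOL6, a factor of ribosome biogenesis which lies 13760 bases beyond the start of AQP3, had 67.5 and 64.6 CPM in vehicle at 24 h in BT474, 80.9 and 82.4 CPM after EGF, and 87.7 and 87.0 CPM after HRG. NOL6 rose in BT474R at 12 h by 0.49 after EGF (SE 0.0620, adjusted p = 7.33e-06 in edgeR) and by 0.29 after HRG (SE 0.0619, adjusted p = 0.00731). AQP3 rose by 2.63 and 1.76 in those comparisons.

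Across the 20 group means, with each line centred on its own mean, the genes most like AQP3 by Pearson's r on log2 CPM were SMPD2 and SOX13 (both 0.96), XPO6 (0.96), GALNT10 (0.96), MAPK8IP1 (0.96) and PPA1 (0.95), of 14190 genes whose mean reached 1 CPM in both lines. The middle of all genes was at 0.05 and the 95th percentile at 0.79. These points share treatments and libraries, and they include the 12 h groups of BT474 by which AQP3 was chosen. Of the 6 genes, 1 stayed among the 6 most like AQP3 with Spearman's rho, 3 without centring and 2 over 40 libraries. Their changes were smaller than that of AQP3. GALNT10, which starts mucin-type glycosylation, stood at 185, 253 and 297 CPM (vehicle, EGF and HRG at 12 h) in BT474 and at 130, 202 and 174 CPM in BT474R. MAPK8IP1, a scaffold of the JNK pathway, stood at 16.1, 22.0 and 24.8 CPM in BT474 and at 38.6, 60.2 and 54.1 CPM in BT474R. SMPD2, a sphingomyelinase, stood at 12.6, 17.04 and 17.2 CPM and at 19.7, 24.4 and 24.4 CPM. The genes least like AQP3 were TTC28-AS1 (-0.96), DNASE2 (-0.95) and CCDC146 (-0.95). No other aquaporin reached a mean of 1 CPM in both lines.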

How the data were processed

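RNA was measured in 40 libraries, 2 for each of 20 groups given by the labels. The authors deposited raw counts of reads per gene, made from paired-end reads trimmed with Trim Galore 0.6.6, aligned to GRCh38.p13 and counted with featureCounts, and not normalized. Which annotation release and strand setting were used, and how multimapping reads were counted, is not given in the sources used here. AQP3 is 1 row of 44584 and was read from all 40 columns.

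AQP3 was tested with edgeR 4.0.16 (R 4.3.3): quasi-likelihood F tests, TMM scaling, a filter that kept a gene if 50% of the fitted libraries had 1 count or more, and p adjusted by Benjamini-Hochberg across every tested gene, called under 0.05. Each line was fitted with its 20 libraries (25146 genes in BT474, 24287 in BT474R), and the lines were compared in a joint fit of 40 libraries (24641 genes). CPM values use TMM over 40 libraries. Comparisons that involve BT474 at 12 h have no test.

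The gene, the gene lists and the comparisons were chosen with earlier results of these data known. Named genes are AQP3, the other aquaporins, up to 3 called members per list and direction with the largest change at 24 h in BT474 and at 12 h in BT474R, the 5 nearest protein-coding genes on each side, and the 6 genes most and 3 least like AQP3 by r; a selection of these is printed, and AQP5-AS1 was added for its overlap. Alternatives were DESeq2 1.42.0, its size factors, filterByExpr, no filter, only the compared libraries, 1 fit of both lines, 2 replicate blocks, thinning to equal depth, and leaving out each library. The scripts were tested on simulated data. Positions and promoters are from RefSeq (GRCh38.p14). The protein sequence was not used here.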

Additional observations from a re-analysis of the deposited data

Results flagged for a closer look

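For AQP3, 2 tested differences between the lines in the response to ligand passed. The HRG effect at 24 h differed between BT474R and BT474 by -1.82 on the log2 scale (adjusted p = 0.00585 in edgeR's interaction test), with AQP3 6.46-fold above vehicle in BT474 and 1.88-fold in BT474R. The change from EGF to HRG at 24 h differed between the lines by -0.97 (adjusted p = 0.0307), in a comparison added after the values were seen. Both rest on HRG libraries of BT474R that stood at 9.773 and 18.95 CPM.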

How the results depend on the processing

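The rises of AQP3 at 24 h in BT474, at 12 h in BT474R and after EGF at 24 h in BT474R, the vehicle fall at 24 h in BT474R and the line differences at T0, 1 h and 24 h kept their direction and their side of the threshold under every alternative run. Where a result did not, its value follows, and the cause of the change was not tested. Without a filter on low counts, calls were gained at 1 h in BT474R for EGF (0.36) and HRG (0.35), for the 24 h against 12 h effects in BT474R (-0.82 for EGF, -0.89 for HRG), for the EGF effect between lines at 24 h (-0.84) and for vehicle against T0 at 12 h in BT474R (0.33). With only the compared libraries, calls were gained for EGF at 1 h (0.35), EGF at 24 h against 12 h (-0.82) and vehicle against T0 at 12 h (0.32 from 0.315), all in BT474R, and lost for HRG at 24 h (0.88), HRG against EGF at 24 h (-0.92), the HRG effect between lines (-1.83) and HRG against EGF between lines (-0.98). DESeq2 also lost the last (-0.97).

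Thinning to equal depth moved the 12 h values of the line difference (3.69), the EGF and HRG effects between lines (-0.68 and -1.68), HRG against EGF between lines (-1.002) and HRG against EGF in BT474 (0.20). It reversed uncalled values of HRG against EGF in BT474 at 1 h (-0.021) and 24 h (-0.049) and of the HRG effect between lines at 1 h (-0.14).

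Replicates share only a number, with a median correlation of deviations of 0.0088 in BT474 and -0.015 in BT474R over 45 pairs of groups each, of which 9 and 14 were over 0.1. At 24 h the correlations were higher, 0.16 to 0.313 in BT474 and 0.00458 to 0.421 in BT474R, and with 2 replicates a group this was not taken as pairing. A replicate block within each time point gained the EGF effect at 24 h against 12 h in BT474R (-0.80, adjusted p = 0.0408 in edgeR) and moved vehicle against T0 at 12 h in BT474 (0.79), and a replicate block changed no other call on AQP3.

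Leaving out each library gave 3.82 to 4.08 (line difference at 12 h), 3.40 to 3.59 and 3.66 to 3.85 (EGF and HRG at 12 h in BT474), 0.36 to 1.29 (HRG at 24 h in BT474R), and for 24 h against 12 h -0.96 to -0.71 (EGF, BT474), -1.28 to -0.86 (HRG, BT474) and -1.40 to -0.49 (HRG, BT474R). For HRG against EGF it gave -0.003 to 0.12 and -0.18 to 0.24 (BT474, 1 h and 24 h) and -0.15 to 0.11, -0.98 to -0.75 and -1.47 to -0.53 (BT474R, 1, 12 and 24 h). Between lines it gave -1.0 to -0.74 (EGF, 12 h), -0.018 to 0.20, -2.13 to -1.87 and -2.34 to -1.40 (HRG, 1, 12 and 24 h), and -0.20 to 0.024, -1.24 to -1.02 and -1.52 to -0.57 (HRG against EGF). For vehicle against T0 it gave -0.27 to 0.96, -0.43 to 0.78 and -1.10 to 0.10 (BT474, 1, 12 and 24 h) and -0.29 to 0.042 (BT474R, 1 h).

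For the line difference at 12 h, a description, 3 of 12 aquaporins passed the threshold upward and 2 downward, and 3 passed with thinning. At T0, 1 h and 24 h, 46.9%, 50.2% and 49.3% of all genes were called between the lines. In BT474R at 1 h, 0 aquaporins were called, against 1 without a filter (EGF and HRG) and 1 for EGF with only the compared libraries. Of all genes, 0.457% were called there after EGF and 0.169% after HRG. The compared libraries alone also gave 2 aquaporins for EGF at 12 h and 0 for HRG at 24 h in BT474R, from 1 each, where 12.0% and 2.78% of all genes were called. Of 840 list counts, 46 moved by more than 1.5 times. Of the 6 genes most like AQP3, 1 stayed with Spearman's rho, 3 without centring and 2 over 40 libraries. Aquaporins with few counts were not measurable at this depth.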
